A study of Mus musculus with 40 samples.

Results

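A single library of mouse lung organoids cultured to day 11 with DCI, labelled LO_day11_DCI, was set against a single library of day 11 organoids without DCI in their label, LO_day11. These are 2 of the 40 libraries of the series. The series title and design text describe branching lung organoids, three-dimensional cultures grown from the epithelial cells at the tips of the embryonic lung. RNA was extracted from whole organoids, so each library is a bulk measurement. The same table holds 2 further libraries, LO_day8 and LO_day18, from days 8 and 18 of culture without DCI in their labels. The labels give no strain, no embryonic stage of the tips, no dose and no start or length of the DCI exposure for these 4 libraries, and they define neither LO nor DCI. They do not say how many animals or cultures were pooled. In lung culture the letters DCI commonly name a mixture of dexamethasone, a cyclic AMP analogue and IBMX, an inhibitor of phosphodiesterases. That reading is background here, and it is the reason why glucocorticoid and cyclic AMP response genes were listed.

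Alveoli are lined by 2 kinds of epithelial cell. Alveolar type 2 (AT2) cells make surfactant, a mixture of lipid and protein that is stored in lamellar bodies and lowers surface tension. Alveolar type 1 (AT1) cells are thin and cover most of the gas exchange surface. Both arise from SOX9-positive progenitors at the distal tips. Glucocorticoids act through the glucocorticoid receptor, a transcription factor that binds DNA when it carries hormone. Cyclic AMP activates protein kinase A, which phosphorylates CREB, and phosphodiesterases break cyclic AMP down. Glucocorticoids and agents that raise cyclic AMP have long been used to bring fetal lung epithelium to make surfactant.

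The palindromic glucocorticoid response element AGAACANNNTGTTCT and the full cyclic AMP response element TGACGTCA were searched in RefSeq promoters of GRCm38.p6, which run from 250 bases before to 50 bases after each annotated start. Both elements read the same on either strand, and neither overlaps the other. Promoters were matched by symbol for 8478 of the 11369 genes measured. The glucocorticoid element was present in 3 of 32851 promoters, 0.00913%, and in 1 of 10926 promoters of genes measured here, that of Sgk1. The cyclic AMP element was present in 1.79% of all promoters, in 3.19% of those of measured genes, in 2.32% of those of genes higher with DCI and in 2.88% of those of genes lower with DCI. A match in these letters is a description and not a binding site. Among the genes of the lists, the cyclic AMP element stood in promoters of 5 called higher (Areg, Dusp1, Elovl5, Errfi1 and Meg3), of 5 called lower (Cenpe, Cldn6, H2-Aa, Mcm5 and Peg3) and of 13 called neither. The windows below hold the elements in capitals with 18 bases on either side. They were chosen after the values were seen and show the glucocorticoid element of Sgk1, then the cyclic AMP element of 3 genes higher (Areg, Dusp1, Errfi1) and 3 lower with DCI (Cldn6, H2-Aa, Mcm5).
Sgk1, chr10:21993683-21993733, plus strand: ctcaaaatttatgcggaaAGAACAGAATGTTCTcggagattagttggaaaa
Areg, chr5:91139520-91139563, plus strand: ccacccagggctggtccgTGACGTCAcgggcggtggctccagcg
Dusp1, chr17:26508590-26508633, minus strand: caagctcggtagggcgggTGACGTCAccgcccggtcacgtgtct
Errfi1, chr4:150855001-150855044, plus strand: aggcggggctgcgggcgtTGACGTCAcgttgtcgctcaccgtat
Cldn6, chr17:23679307-23679350, plus strand: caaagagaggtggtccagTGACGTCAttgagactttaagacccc
H2-Aa, chr17:34287872-34287915, minus strand: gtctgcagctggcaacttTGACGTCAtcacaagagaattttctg
Mcm5, chr8:75109392-75109435, plus strand: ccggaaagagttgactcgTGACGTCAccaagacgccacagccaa
The elements began 189 bases before the annotated start in Sgk1, 61 in Areg, 143 in Dusp1, 51 in Errfi1, 40 in Cldn6, 74 in H2-Aa and 99 in Mcm5.

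Values are TPM, each gene's transcript share corrected for length and brought to the same total in every library, so depth is unknown. Differences are of log2(TPM + 1), LO_day11_DCI minus LO_day11, which understates the change of genes at low levels. A gene is called higher or lower where this difference reached 1 in size and the TPM was 5 or more in the higher library. With 1 library in each group there was no replicate check and no test, and each value describes these libraries. The 4 libraries summed to 998506 to 999209 TPM. Mitochondrial genes took 7.99% of the total in LO_day11_DCI and 9.79 to 10.2% in the other 3. Ribosomal protein genes took 11.7% in LO_day11_DCI, 12.3% in LO_day18, 16.6% in LO_day11 and 17.4% in LO_day8. The Y-linked Ddx3y was at 17.9 TPM in LO_day8 and at most 0.07 TPM in the other 3 libraries. Of 15 epithelial markers, all reached 5 TPM, 2 were called higher and 2 lower, with a median difference of 0.55. Those 13.3% in each direction stand beside 11.2% higher and 13.0% lower over all genes measured. Epcam, a surface protein of epithelia, was called lower, at 543 TPM in LO_day11, 268 TPM in LO_day18 and 224 TPM in LO_day11_DCI. Nkx2-1, the lung lineage factor, was at 282 TPM in LO_day11 and 430 TPM in LO_day11_DCI. Of 16 immune markers, 12 were listed at 0 in LO_day11 and 10 in LO_day11_DCI, Ptprc and Tyrobp in both. Of 12 endothelial markers, 8 were listed at 0 in LO_day11 and 7 in LO_day11_DCI, Cdh5 and Kdr in both. Another 2 reached 5 TPM in either library, and 1 of them, Egfl7, was called higher. Egfl7 was at 4.07 TPM without and 12.0 TPM with DCI, and at 12.3 TPM on day 8. Of 18 mesenchymal markers, 7 reached 5 TPM in either library, and 6 of these 7 were higher in LO_day11_DCI than in each of the 3 other LO libraries. Over all genes measured, 3600 of 11369 were higher than in each of those 3. The summed level of those 18 markers was 98.9 TPM in LO_day11 and 113 TPM in LO_day11_DCI. Over 10 organoid libraries of another table, described below, that sum ran from 19.0 to 456 TPM. Of the 7 measured, 1 was above the 3 other LO and those 10 libraries. Pdgfra, a fibroblast receptor, was at 0.03 TPM without and 14.7 TPM with DCI, and Tbx4, a factor of lung mesenchyme, at 0.20 and 5.61 TPM. Dcn, a matrix proteoglycan of fibroblasts, was the 1 measured marker lower, at 34.4 TPM without, 0.66 TPM with DCI and 1.91 TPM on day 18. Against LO_day18, 6 of the 6 markers at 5 TPM were called higher, with a median of 3.0. The part of such cells in the results was not tested.

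Of 11369 genes at 5 TPM or more in either library, 1270 were higher with DCI (11.2%) and 1478 were lower (13.0%), together 24.2%. The median difference was -0.08. Counts of called genes in the lists below are to be read beside the 11.2% higher and 13.0% lower of all genes measured. LO_day18 set against the same LO_day11 library gave 711 genes higher (6.32%) and 874 lower (7.77%), together 14.1%. LO_day8 gave 324 (2.87%) and 268 (2.38%), together 5.25%. These comparisons share the LO_day11 library. Of the 1270 genes called higher, 614 were also above LO_day8 and LO_day18 by 1 or more, 5.40% of all genes measured. A further 508 lay above all 3 by less, and 148 were within the range of the 3. Among the 1478 called lower, 441 were below all 3 by 1 or more (3.88%), 806 were below by less and 231 were within the range. Whatever the size of the difference, 3600 of the 11369 genes lay above all 3 and 4104 below all 3. Set against LO_day18 instead, LO_day11_DCI had 977 genes higher (8.82%) and 788 lower (7.12%), together 15.9%. For reference, levels are also given for 10 organoid libraries without DCI in their labels from another table of the series, grown for 11 to 32 days from tips of embryonic day 9.5 to 14. A wider set of 32 libraries includes these 10 and further libraries of organoids and organoid pieces. It leaves out the libraries of embryonic lung tips. Those tables were normalised separately, so their levels are set side by side only. Above all 3 LO and all 10 of those organoid libraries by 1 or more stood 343 genes (3.02%), and below all of them 158 (1.39%). With the 32 libraries in place of the 10, these counts were 147 (1.29%) and 10 (0.088%). Whatever the size of the difference, 2614 genes lay above all 3 LO and all 10 organoid libraries, and 1840 below them. Above the 3 LO and all 32 libraries stood 1195.

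**Figure D1:**
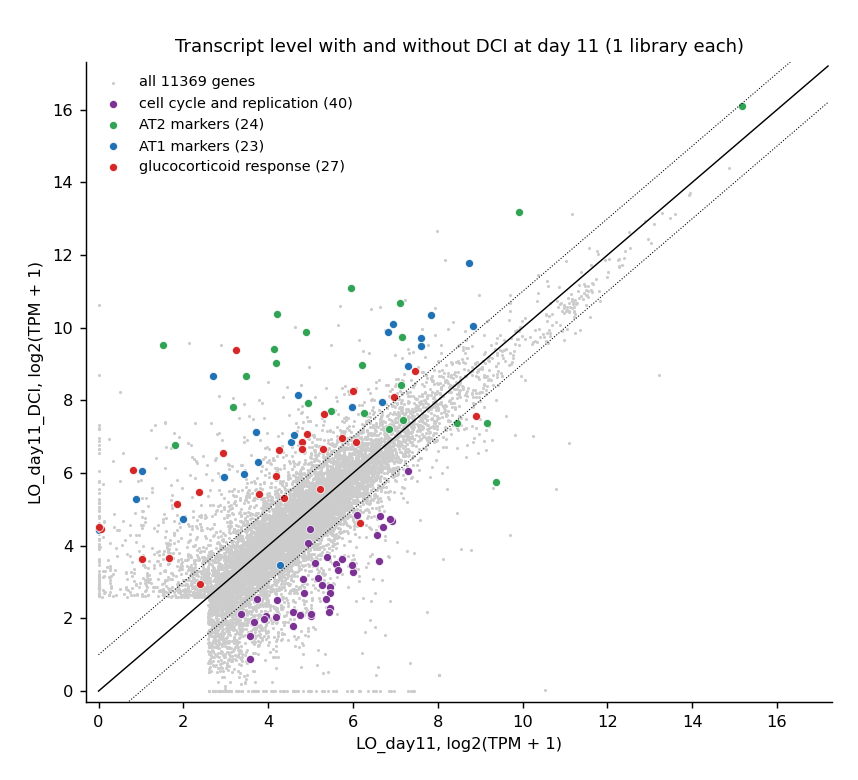
Level of each of the 11369 genes in LO_day11 (horizontal axis) and LO_day11_DCI (vertical axis), both in log2(TPM + 1), with 1 library each; the solid line marks equality, the dotted lines a difference of 1, and coloured points are members of 4 gene lists. The 40 cell cycle genes all lie below the line of equality, while 22 of 23 AT1 markers lie above the upper dotted line.

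Genes known to answer the glucocorticoid receptor stood higher with DCI. Of a list of 28, 27 reached 5 TPM in either library, 8 of them only in LO_day11_DCI. Of these, 21 were called higher, 2 lower and 4 neither, beside 11.2% higher and 13.0% lower over all genes measured. The list's median difference was 1.99, beside -0.08 over all genes measured. Its mean log2(TPM + 1) was 6.17 in LO_day11_DCI, against 3.91 in LO_day8, 4.10 in LO_day11 and 4.47 in LO_day18. It ran from 4.08 to 4.71 over the 10 organoid libraries. These means cover genes picked by their level in LO_day11 or LO_day11_DCI, a choice that can raise LO_day11_DCI against the other libraries. Summed over all 28 genes, the level was 3381 TPM in LO_day11_DCI and at most 2671 TPM in the 10 organoid libraries. Of the 27 genes, 22 were above the 3 other LO libraries, and 13 of these were also above each of the wider set of 32 libraries. Over all 11369 genes measured these counts were 3600 and 1195. The list was drawn up with the reading of DCI given above in mind.

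Fkbp5 (chr17:28399094-28517527) encodes a co-chaperone that binds the glucocorticoid receptor and is among its most used target genes. It was at 11.0 TPM in LO_day8, 6.69 TPM in LO_day11, 2.61 TPM in LO_day18 and 92.8 TPM in LO_day11_DCI, a difference of 3.61. The range over the 10 organoid libraries was 1.75 to 7.02 TPM, and the highest of the wider set of 32 libraries was 9.20 TPM. Zbtb16, a zinc finger repressor, was at 0.25, 0.04 and 0 TPM in the LO libraries of days 8, 11 and 18 and at 20.9 TPM with DCI, with at most 0.46 TPM in the 32 other libraries. Both genes were thus at a level with DCI that none of the other organoid libraries approached. Rgcc, a regulator of the cell cycle, gave the widest difference of the list, 6.14, from 8.43 TPM in LO_day11 to 665 TPM in LO_day11_DCI. Its levels were 12.8 TPM on day 8 and 12.6 TPM on day 18.

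Other widely used target genes differed by less. Tsc22d3, which encodes the anti-inflammatory protein GILZ, was at 25.9, 26.8 and 33.3 TPM on days 8, 11 and 18 and at 114 TPM with DCI. Sgk1, the kinase that keeps epithelial sodium channels at the cell surface, and whose promoter holds the element printed above, was at 11.8, 26.8 and 13.6 TPM and at 101 TPM with DCI. The clock gene Per1 was at 10.47, 17.07 and 11.6 TPM and at 59.2 TPM with DCI. In each of these the highest of the 3 libraries without DCI stayed well below LO_day11_DCI, and so did the 10 organoid libraries. The highest of the 32 libraries, however, was at 78.9 TPM for Per1, above LO_day11_DCI. Klf9, a transcription factor, differed by 1.63, Dusp1, a phosphatase of MAP kinases, by 2.15, and Errfi1, an inhibitor of the EGF receptor, by 1.35. Dusp1 at 133 TPM and Errfi1 at 452 TPM with DCI were also below the highest of the 32 libraries, at 200 and 476 TPM. Glul, glutamine synthetase, differed by 2.25, and Pdk4, which restrains pyruvate oxidation, by 3.12. Orm1, an acute phase protein, was listed at 0 in LO_day11 and at 21.8 TPM with DCI. The metallothioneins Mt1 and Mt2 were at 125 and 52.9 TPM without and 271 and 123 TPM with DCI, within the range of the 10 organoid libraries for both. Lcn2, Cebpd and Bcl6 were called higher as well, but reached or exceeded similar levels on day 18 without DCI. Lcn2, an iron-binding defence protein, was at 0.77 TPM in LO_day11, 66.6 TPM with DCI and 1271 TPM on day 18. Below the threshold were Cry2 at 0.94, Ddit4 at 0.78, Arrdc2 at 0.57 and Nfkbia, the NF-kB inhibitor, at 0.33. Cdkn1c, an imprinted inhibitor of the cell cycle, was lower at -1.35 and Tgm2, a transglutaminase, at -1.54.

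The receptor itself did not stand apart. Nr3c1, the glucocorticoid receptor, was at 38.9, 39.7 and 28.0 TPM on days 8, 11 and 18 and at 31.2 TPM with DCI, a difference of -0.34. Of the 12 genes of the receptor and its steroid handling, 7 reached 5 TPM, none was called higher and 1 was called lower. That gene was Hsp90ab1, a chaperone of the receptor, at 1553 TPM without and 764 TPM with DCI.

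Targets of cyclic AMP were mixed. Of 29 genes, 15 reached 5 TPM in either library, 7 were called higher and 2 lower, with a median difference of 0.95. The shares were 46.7% and 13.3%, beside 11.2% and 13.0% over all genes measured. Areg, a ligand of the EGF receptor, was at 12.49, 9.82 and 31.7 TPM on days 8, 11 and 18 and at 125 TPM with DCI. Sik1, a kinase that CREB induces and that restrains CREB coactivators, was at 11.1, 14.7 and 13.4 TPM and at 104 TPM with DCI, with 11.0 to 28.7 TPM in the 10 organoid libraries. Rasd1, a small GTPase, was at 0.26 TPM without and 8.25 TPM with DCI. Fos, Per2 and Ppargc1a differed by 1.92, 1.26 and 1.05, and Fos at 36.9 TPM lay within the organoid range of 1.15 to 68.1 TPM. Crem, a CREB family member, differed by 0.62, Nr4a1, an orphan nuclear receptor, by 0.95, Cited2 by 0.94, Pde4d by 0.20, Junb by -0.17 and Crtc1 by -0.49. Egr1, an immediate early gene, was at 131 TPM without and 16.1 TPM with DCI, and at 16.3 TPM on day 18. Id1, which also answers BMP, was at 273 and 63.2 TPM. Areg, Rasd1, Sik1, Per2 and Ppargc1a lay above the 3 other LO and the 10 organoid libraries, whereas Pde7b and Fos did not. The highest of the 32 libraries was above LO_day11_DCI for Areg, at 139 TPM. Of the 15 genes, 4 lay above the 3 other LO and all 32 libraries, beside 1195 of 11369 genes measured.

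Among 18 phosphodiesterase genes, 7 reached 5 TPM, 3 were called higher and 1 lower, beside 11.2% and 13.0% over all genes measured. Pde7a was at 89.3, 70.0 and 57.1 TPM on days 8, 11 and 18 and at 234 TPM with DCI, above the 53.0 to 115 TPM of the 10 organoid libraries. Pde4c was at 2.40 TPM without and 12.8 TPM with DCI. Pde7b was at 1.87 and 12.7 TPM, but also at 15.8 TPM on day 18. Both Pde7 enzymes are specific for cyclic AMP. Pde9a, which is specific for cyclic GMP, was lower at 7.41 and 1.29 TPM, and at 0.65 TPM on day 18, and Pde8b at 0.56, Pde4d at 0.20 and Pde4a at -0.44 stayed below the threshold. Of 30 genes that make, sense or bind cyclic AMP, 20 reached 5 TPM, 2 were called higher and 5 lower. The 10.0% called higher was near the 11.2% over all genes measured, and 25.0% were lower, beside 13.0%. Rapgef4, a cyclic AMP sensor outside the kinase, was at 0.84 TPM without and 18.8 TPM with DCI. The adenylyl cyclase Adcy6 was at 81.5 and 34.2 TPM, and the kinase subunits Prkar2b at 11.8 and 1.62 TPM and Prkar1b at 8.25 and 1.65 TPM. On day 18 Prkar2b and Prkar1b were at 4.70 and 3.19 TPM. The anchor protein Akap12 was at 10.1 and 0.25 TPM, and at 0.16 TPM on day 18.

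**Figure D2:**
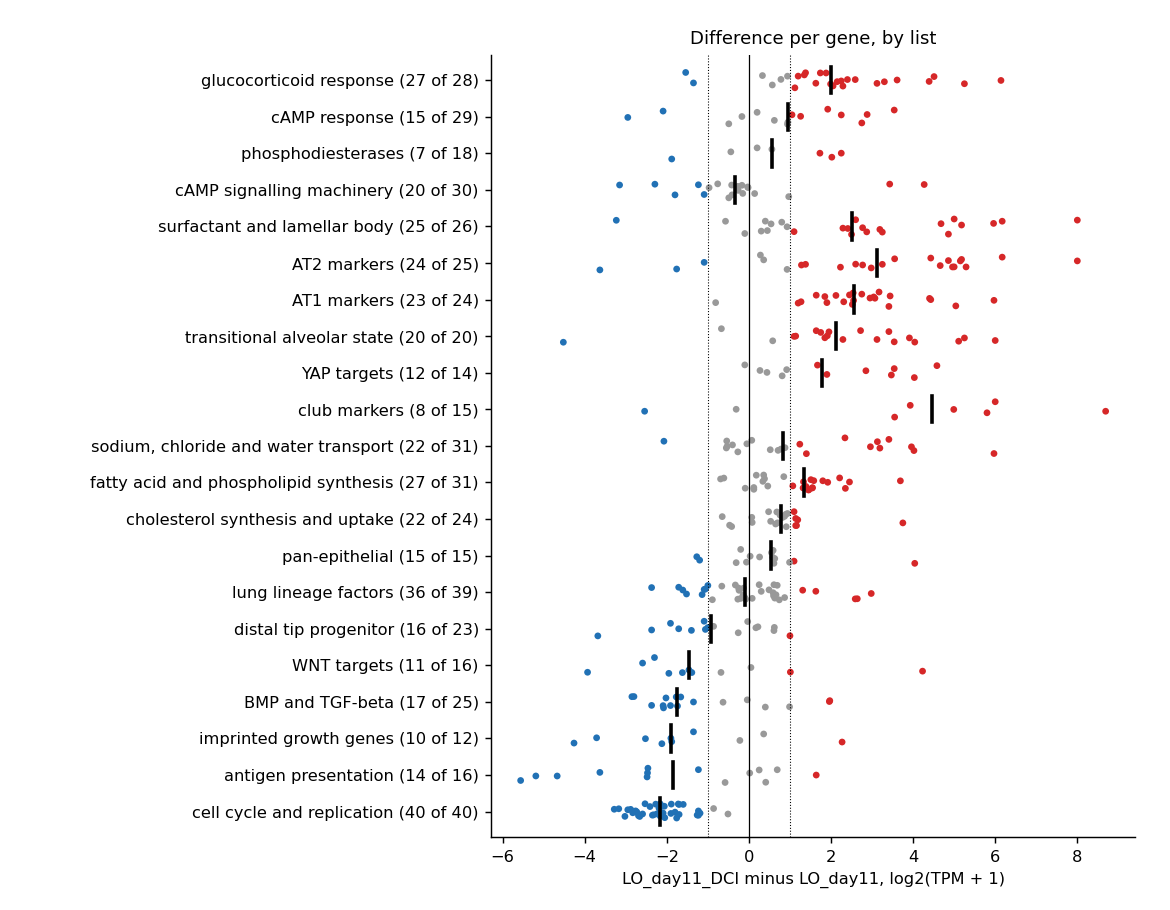
Difference in log2(TPM + 1) between LO_day11_DCI and LO_day11 for each gene at 5 TPM or more in either library, by list; numbers in brackets give those genes and the whole list, points past a difference of 1 are coloured, and black bars are medians. The median is 3.11 for the AT2 list and -2.16 for the cell cycle list, beside -0.08 over all genes measured.

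Surfactant and lamellar body genes were mostly higher with DCI than in LO_day11. Of 26 genes, 25 are in the table and reached 5 TPM, 3 of them only in LO_day11_DCI, 16 were called higher and 1 lower, with a median difference of 2.50. In LO_day11, 15 of the 25 were lower than in any of the 10 organoid libraries, beside 760 of 11369 genes measured. LO_day18 against LO_day11 gave 15 of 24 higher with a median of 1.83. LO_day11_DCI against LO_day18 gave 5 of 25 higher and 1 lower, with a median of 0.23.

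Sftpc, a surfactant protein of AT2 cells, was the most abundant of the list. It was at 12436, 36975 and 109318 TPM on days 8, 11 and 18 and at 70632 TPM with DCI. Its difference of 0.93 did not reach the threshold. Sftpb, the surfactant protein that air breathing requires, was at 240, 970 and 7141 TPM and at 9247 TPM with DCI. Sftpa1, a collectin of surfactant, was at 12.7, 28.5 and 982 TPM and at 942 TPM with DCI. Sftpd (chr14:41172214-41185149), the other collectin, was at 1.07, 1.89 and 1024 TPM and at 737 TPM with DCI. Each of these 4 surfactant proteins was highest in LO_day18 or LO_day11_DCI, and Sftpb was the one with LO_day11_DCI above LO_day18. Sftpd ranged from 12.8 to 1072 TPM over the 10 organoid libraries, so LO_day11_DCI lay within their range.

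Slc34a2, Abca3 and Lamp3, of surfactant transport and storage, were within a log2 difference of 1 of day 18. Slc34a2, a phosphate transporter of AT2 cells, was at 17.6 TPM without and 1336 TPM with DCI, and at 1135 TPM on day 18. Abca3, the lipid pump of the lamellar body, was at 72.9, 504 and 496 TPM in the same order, and Lamp3, a lysosomal membrane protein, at 10.2, 404 and 687 TPM. Ctsh and Napsa, proteases that process surfactant protein precursors, went beyond day 18. Ctsh, cathepsin H, was at 253 TPM without and 6502 TPM with DCI, and at 1454 TPM on day 18. Napsa, napsin A, was at 17.0, 525 and 108 TPM. For both proteases LO_day11_DCI lay above the 10 organoid libraries, which reached 1469 TPM for Ctsh and 96.9 TPM for Napsa. The fatty acid carrier Cd36 was at 1.35 TPM without, 146 TPM with DCI and 23.2 TPM on day 18. Mfsd2a, a lysolipid transporter, was at 2.09, 15.4 and 1.23 TPM, and Aqp1, a water channel, at 107, 981 and 7.77 TPM. The general lysosome and trafficking members were not called: Lamp1 differed by 0.80, Rab38 by 0.40, Vps33b by 0.30, Hps1 by -0.10 and Hps4 by -0.57. Lgi3 and the flippase Atp8a1 differed by 0.54 and 0.45. Pgc, pepsinogen C, was the 1 member called lower, at 9.96 TPM without, 0.17 TPM with DCI and 20.2 TPM on day 18.

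Over a list of 25 AT2 markers, 24 reached 5 TPM, 3 of them only in LO_day11_DCI, 18 were called higher and 3 lower, with a median of 3.11. Of the 24, 7 lay above all 3 other LO libraries and 13 between LO_day11 and LO_day18. Over all 11369 genes measured these counts were 3600 and 887. In LO_day11, 16 of the 24 were below all 10 organoid libraries, beside 760 of all genes measured. Against LO_day18, 2 of 25 were higher and 8 lower, with a median of -0.63. S100g, a calcium-binding protein, was at 16.5 TPM without, 683 TPM with DCI and 391 TPM on day 18, and the lineage factor Cebpa at 29.9, 242 and 208 TPM. Cxcl15, an epithelial chemokine, was at 60.5, 2185 and 4439 TPM. The lysozymes and chitinase-like protein reached much less than on day 18: Lyz1 was at 7.99, 226 and 1253 TPM, and Chil1 at 2.51, 108 and 2071 TPM. Lyz1 and Lyz2 are near-identical neighbours, so how reads were shared between them is uncertain. The 3 AT2 members called lower were Cd74, Egfl6 and Etv5.

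Nearly all AT1 markers were higher with DCI. Of 24 genes, 23 reached 5 TPM, 4 of them only in LO_day11_DCI, 22 were called higher and none lower, with a median of 2.55. Of the 23 measured, 22 lay above all 3 other LO libraries, 17 of them by 1 or more, and 21 lay above the 10 organoid libraries as well. With the 32 libraries in place of the 10, 13 lay above all. Over all 11369 genes measured, 3600 lay above the 3 LO libraries and 2614 above the 10 as well. Above the 3 LO and the 32 libraries lay 1195. LO_day18 against LO_day11 gave 9 of 23 higher with a median of 0.76, and LO_day11_DCI against LO_day18 gave 17 of 24 higher and 1 lower with a median of 1.63. In bulk RNA, more cells of a type and more RNA per cell cannot be told apart.

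Aqp5 (chr15:99590782-99594829), a water channel of AT1 cells and glands, was at 2.94, 5.45 and 80.3 TPM on days 8, 11 and 18 and at 403 TPM with DCI. Ager, the receptor for advanced glycation end products and the classical AT1 marker, was at 225, 427 and 900 TPM and at 3508 TPM with DCI. The 10 organoid libraries ran from 329 to 991 TPM for Ager. Hopx, a homeodomain protein of AT1 cells, was at 49.0, 112 and 191 TPM and at 949 TPM with DCI. For Ager and Hopx LO_day11_DCI thus lay above LO_day18, by 1.96 and 2.31. Cav1, the scaffold of caveolae, was at 13.8, 25.0 and 35.0 TPM and at 281 TPM with DCI. Clic5, a chloride channel protein, was at 1.02 TPM without and 65.5 TPM with DCI, Spock2, a matrix proteoglycan, at 0.86 and 38.4 TPM, and Pdpn, podoplanin, at 2.98 and 25.8 TPM. On day 18 these 3 were at 8.09, 20.8 and 17.8 TPM. The highest of the 32 libraries exceeded LO_day11_DCI for these 3, at 111, 63.9 and 51.1 TPM, and for Aqp5, at 414 TPM. Vegfa, the endothelial growth factor that AT1 cells secrete, was at 193 and 724 TPM. Col4a3 and Col4a4, basement membrane collagens, differed by 2.95 and 2.54. Cldn18, the claudin of alveolar epithelium, differed by 1.20, from 456 to 1048 TPM, and Cyp2b10 was listed at 0 in LO_day11 and at 20.5 TPM with DCI. Both were higher in the highest of the 32 libraries, at 1145 and 40.6 TPM. Sema3e, at -0.81, was the 1 measured member not called.

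Genes of the transitional alveolar state, a keratin-rich state described between AT2 and AT1 cells, were also higher. All 20 reached 5 TPM, 6 of them only in LO_day11_DCI, 17 were called higher and 1 lower, with a median of 2.12, and 14 of the 17 lay above all 3 other LO libraries by 1 or more. Of the 20, 6 lay above the 3 other LO and the 32 libraries, beside 1195 of 11369 genes measured. Krt19, a simple epithelial keratin, was at 45.6, 43.6 and 47.2 TPM on days 8, 11 and 18 and at 735 TPM with DCI. It ran from 49.6 to 154 TPM over the 10 organoid libraries and reached 410 TPM in the library labelled 2C+F10, the highest of the 32. Sfn, the cell cycle inhibitor stratifin, was at 9.14, 10.2 and 10.7 TPM and at 119 TPM with DCI. The cornified envelope gene Sprr1a was at 2.71 TPM without and 127 TPM with DCI. Lgals3, galectin 3, differed by 3.12, Cdkn1a, the inhibitor p21, by 2.29 and Krt8 by 1.10. Krt18, the partner of Krt8, differed by 0.58 and was not called. Clu, clusterin, went the other way at 4249, 9449 and 1558 TPM on days 8, 11 and 18 and 412 TPM with DCI, below the 949 to 3630 TPM of the 10 organoid libraries. Cdkn1a, Areg, Lcn2 and Krt7 also stand in lists given above, so the lists are not separate evidence.

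Targets of YAP, a transcriptional coactivator that responds to cell shape and stretch, were also higher in part. Of 14, 12 reached 5 TPM, 7 were called higher and none lower, with a median of 1.79. Ccn2 and Ccn1, the most used YAP targets, were at 9.37 and 33.4 TPM without and 73.8 and 109 TPM with DCI. Both lay inside the 10 organoid libraries, which reached 133 and 422 TPM. Cavin2, a caveolar protein, was at 3.52 and 107 TPM, and F3, tissue factor, at 10.7 and 190 TPM. The partners Tead1 at -0.10 and Amotl1 at 0.27 were not called.

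**Figure D3:**
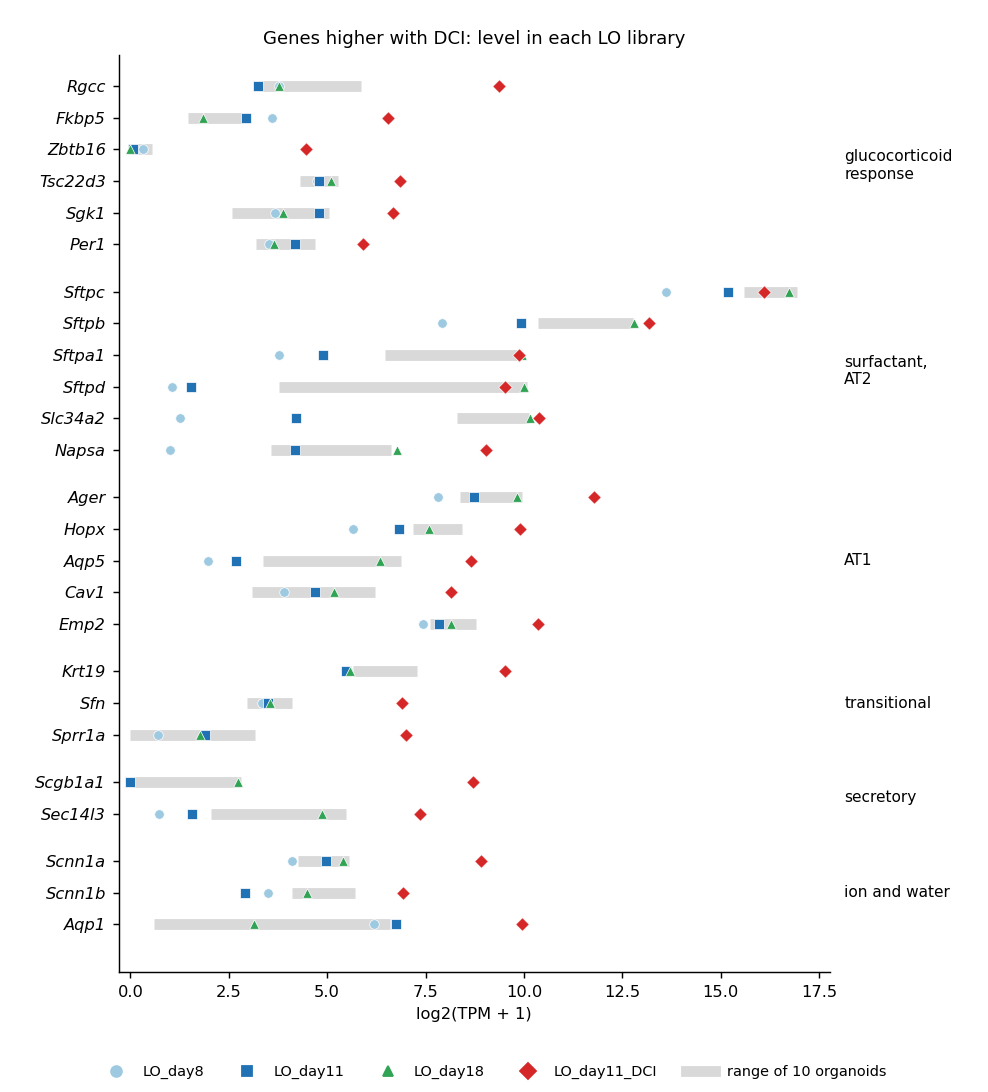
Level in log2(TPM + 1) of genes higher with DCI in each LO library (symbols, 1 library each) and their range over 10 organoid libraries of a separately normalised table (grey bars). Fkbp5 at 92.8 TPM, Ager at 3508 TPM and Scnn1a at 483 TPM lie beyond the grey bar in LO_day11_DCI, whereas Sftpc and Sftpd lie within it.

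Airway genes were represented by a few secretory markers. Scgb1a1 (chr19:9083636-9087958), the secretoglobin of club cells, was listed at 0 on days 8 and 11, was at 5.68 TPM on day 18 and at 413 TPM with DCI. It reached at most 5.97 TPM in the 10 organoid libraries but 4156 TPM in the library labelled 2C+VC. Sec14l3, a lipid-binding protein of airway cells, was at 0.66, 1.97 and 28.4 TPM on days 8, 11 and 18 and at 165 TPM with DCI, and Retnla, a secreted resistin-like protein, at 0, 20.8 and 0.45 TPM and at 331 TPM with DCI. Of 15 club markers, 8 reached 5 TPM, 5 of them only in LO_day11_DCI, 6 were called higher and 1 lower. The other defining club genes were at low levels with DCI: Scgb3a2 at 1.71 TPM, Cyp2f2 at 0.61 TPM, and Scgb3a1 and Cyp2a5 listed at 0. None of the 12 goblet markers reached 5 TPM in either library, Muc5b being listed at 0 in both. Foxj1, the ciliated cell factor, was at 0.08 TPM in both, and of 20 ciliated markers 4 reached 5 TPM, none higher and 2 lower. Of 12 basal markers 4 reached 5 TPM, and Aqp3, Pdpn and Icam1 were called higher, but Trp63, Krt14 and Sox2 were listed at 0 in both libraries.

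Fluid transport genes were partly higher with DCI. Of 31, 22 reached 5 TPM, 10 were called higher and 1 lower, with a median of 0.83. The epithelial sodium channel, by which alveoli absorb liquid at birth, had all 3 subunits higher. Scnn1a was at 16.1, 30.2 and 41.6 TPM on days 8, 11 and 18 and at 483 TPM with DCI, Scnn1b at 10.3, 6.48 and 21.3 TPM and at 120 TPM, and Scnn1g at 8.53, 12.1 and 35.4 TPM and at 139 TPM. The 10 organoid libraries reached 45.9, 51.2 and 46.5 TPM for the 3 subunits. All 3 subunits thus lay above every organoid library of that table. Nedd4l, the ligase that removes the channel from the membrane, was at 40.4 TPM without and 321 TPM with DCI. The sodium pump subunit Atp1b1 was at 196 and 998 TPM, while Atp1b3 differed by 0.52. Water channels Aqp1, Aqp3 and Aqp5 were all called higher. The chloride channel Cftr was at 5.18 TPM without and 15.4 TPM with DCI but at 52.4 TPM on day 18, and Slc26a9, a chloride transporter, at 32.7, 78.8 and 110 TPM. Cftr and Slc26a9 were both called higher than in LO_day11. Slc12a2, the cotransporter NKCC1, differed by 0.07 and Ano1, a calcium-activated chloride channel, by -0.05, and neither was called. The channel-activating protease Prss8 differed by 0.88 and the kinases Wnk1 by 0.71 and Wnk4 by -0.40. Slc9a3r1, Slc4a4, Clcn2 and Kcnq1 differed by -0.27, -0.53, -0.54 and -0.55. Fxyd3, a pump regulator, was lower at 154 and 35.8 TPM, and was at 10.7 TPM on day 18.

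Lipid synthesis genes were higher in part. Of 31 genes of fatty acid and phospholipid synthesis, 27 reached 5 TPM, 16 were called higher and none lower, with a median of 1.33. Scd1, the desaturase of fatty acids, was at 101, 286 and 5925 TPM on days 8, 11 and 18 and at 3712 TPM with DCI, inside the range of 792 to 6081 TPM of the 10 organoid libraries. Fasn, fatty acid synthase, was at 329 TPM without, 1149 TPM with DCI and 888 TPM on day 18. Gpam, which starts glycerolipid synthesis, was at 26.6, 149 and 102 TPM, and Acss2 at 10.1, 55.7 and 35.2 TPM. Srebf1, the factor that drives many of these genes, differed by 0.12. Of 24 cholesterol genes, 22 reached 5 TPM, 6 were called higher and none lower, with a median of 0.79. Pmvk, phosphomevalonate kinase, was at 22.5, 19.3 and 37.2 TPM on days 8, 11 and 18 and at 272 TPM with DCI, while its neighbours in the pathway Mvk and Mvd differed by 0.82 and 1.14.

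Proliferation genes were lower with DCI. Of 40 cell cycle and replication genes, all reached 5 TPM, 17 of them only in LO_day11, and 38 were called lower and none higher, with a median of -2.16. All 40 were lower with DCI than in LO_day11, 39 were below all 3 other LO libraries and 36 below the 10 organoid libraries as well. Of the 40, 24 were also below each of the 32 libraries. Over all 11369 genes measured, 6239 were lower than in LO_day11, 4104 below the 3 LO libraries and 1840 below the 10 as well. Below each of the 32 libraries were 663. Mki67, the Ki-67 antigen, was at 54.5, 42.6 and 22.5 TPM on days 8, 11 and 18 and at 3.86 TPM with DCI, against 19.2 to 53.5 TPM in the 10 organoid libraries. Top2a, the topoisomerase of dividing cells, was at 127, 96.7 and 53.2 TPM and at 11.1 TPM with DCI. Mki67 and Top2a were thus lower on day 18 than on day 11, and lower again with DCI. Uhrf1, which maintains DNA methylation at replication, differed by -3.28, the mitotic genes Bub1b, Kif20a and Ccna2 by -2.95, -2.88 and -2.83. Gins2, at -0.51, and Ccnd1, cyclin D1, at -0.86, were the members not called. LO_day18 against LO_day11 gave 21 of 40 lower with a median of -1.01, and LO_day11_DCI against LO_day18 gave 21 of 38 lower with a median of -1.26.

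Progenitor genes of the distal tip were lower in part. Of a list of 23, 16 reached 5 TPM, 8 were called lower and 1 higher, with a median of -0.93. Of the 16, 0 were below each of the 32 libraries. Sox9, the tip factor, was at 83.9, 64.8 and 49.8 TPM on days 8, 11 and 18 and at 19.2 TPM with DCI. That was below the 25.8 to 88.6 TPM of the 10 organoid libraries, but the lowest of the 32 libraries was at 4.24 TPM. Id2, an inhibitor of differentiation, was at 462, 624 and 453 TPM and at 120 TPM with DCI, and Bmp4, the signal of the tip, at 431, 411 and 238 TPM and at 109 TPM. Wnt7b, an epithelial WNT ligand, was at 112, 74.7 and 7.28 TPM and at 4.89 TPM with DCI. Etv5, a target of FGF signalling, differed by -1.09, whereas the FGF receptor Fgfr2 at -0.26, Shh at 0.22 and the FGF feedback inhibitors Spry1 at 0.61 and Spry2 at 0.17 were not called. Cpm, a carboxypeptidase, was the member called higher. The lung lineage factors as a whole were near balance: of 39, 36 reached 5 TPM, 5 were called higher and 8 lower, with a median of -0.09. These were 13.9% and 22.2%, beside 11.2% and 13.0% over all genes measured. Elf5, an epithelial factor, was higher at 15.3 TPM without and 100 TPM with DCI, and at 130 TPM on day 18. Foxa2 at 0.66, Foxa1 at -0.13, Gata6 at -0.66 and Nkx2-1 at 0.61 were not called.

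Most measured BMP and TGF-beta genes were lower. Of a list of 25, 17 reached 5 TPM, 11 were called lower and 2 higher, with a median of -1.74. The direct BMP targets Id1, Id2, Id3 and Id4 differed by -2.09, -2.37, -2.85 and -2.02, and the inhibitory Smad6 and Smad7 by -2.08 and -1.77. Smad9, a BMP transducer, was at 17.5, 19.6 and 10.4 TPM on days 8, 11 and 18 and at 1.95 TPM with DCI. Tgfbi, a matrix protein that TGF-beta induces, was higher at 10.6 TPM without and 44.0 TPM with DCI, as was the ligand Bmp2 at 0.67 and 5.56 TPM. Of 16 WNT targets, 11 reached 5 TPM, 7 were called lower and 2 higher, with a median of -1.46. The feedback inhibitors Axin2, Rnf43 and Notum differed by -1.39, -1.95 and -2.30, and Dkk1 was at 14.3 TPM without, listed at 0 with DCI and at 0.41 TPM on day 18. Nkd1, another feedback inhibitor, went the other way at 19.7, 12.8 and 20.7 TPM on days 8, 11 and 18 and 257 TPM with DCI, above the highest of the 32 other libraries at 38.5 TPM. A single member thus held the summed level of the list above that of LO_day11, at 335 against 234 TPM, while most members were lower.

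Imprinted growth genes were mostly lower than in LO_day11. Of a list of 12, 10 reached 5 TPM, 7 were called lower and 1 higher, with a median of -1.89. H19 was at 4759, 2174 and 3.37 TPM on days 8, 11 and 18 and at 112 TPM with DCI. Igf2, the fetal growth factor of the same locus, was at 1380, 630 and 1.60 TPM and at 47.4 TPM with DCI. Both were far below LO_day11 and far above LO_day18, and both lay within the 10 organoid libraries. Grb10, a growth inhibitor, was at 742, 566 and 118 TPM and at 98.1 TPM with DCI. Meg3, a maternally expressed noncoding RNA, was the member called higher, at 196, 65.9 and 1.06 TPM and at 321 TPM with DCI, above the 10 organoid libraries. Dlk1, its paternally expressed neighbour, differed by 0.36 and was not called.

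MHC class II genes, which AT2 cells express, were lower with DCI. H2-Aa was at 26.1, 212 and 357 TPM on days 8, 11 and 18 and at 3.51 TPM with DCI, and H2-Ab1 at 9.30, 106 and 243 TPM and at 1.93 TPM. Cd74, the invariant chain, was at 91.98, 664 and 1898 TPM and at 52.9 TPM with DCI. The peptide loaders H2-DMa and H2-DMb1 differed by -2.47 and -2.48, and Ciita, the master activator of the class, was at 7.27 TPM without and 0.50 TPM with DCI. For H2-Aa, H2-Ab1, Cd74 and Ciita the level without DCI was lowest on day 8 and highest on day 18, and LO_day11_DCI was below day 8. The 10 organoid libraries ran from 2.52 to 390 TPM for H2-Aa, so LO_day11_DCI lay within their range near its lower end. Class I differed less: H2-K1 by 0.02 and B2m by -0.58, while H2-D1 was higher by 1.64. Over all 16 genes of antigen presentation, 14 reached 5 TPM, 8 were called lower and 1 higher, with a median of -1.85. Beside these values, the leukocyte markers Ptprc and Tyrobp were listed at 0 in both libraries, while Cd14, a monocyte marker, was at 6.47 TPM without and 2.66 TPM with DCI.

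Several defence genes and chemokines were higher than in LO_day11. Of 21 mucosal defence genes, 7 reached 5 TPM, 4 of them only in LO_day11_DCI, and 6 were called higher. Against LO_day18, 8 of 8 were lower, with a median of -2.63. Saa3, an acute phase protein, was at 0.10 TPM without, 24.8 TPM with DCI and 162 TPM on day 18, and Slpi, a protease inhibitor, at 10.1, 48.2 and 297 TPM. Of 27 NF-kB targets and chemokines, 14 reached 5 TPM and 8 were called higher, none of them above all 3 other LO libraries by 1 or more. Against LO_day18, 9 of 19 were lower and none higher, with a median of -0.95. The complement gene C3 was at 0.08, 8.97 and 92.7 TPM in LO_day11, LO_day11_DCI and LO_day18.

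**Figure D4:**
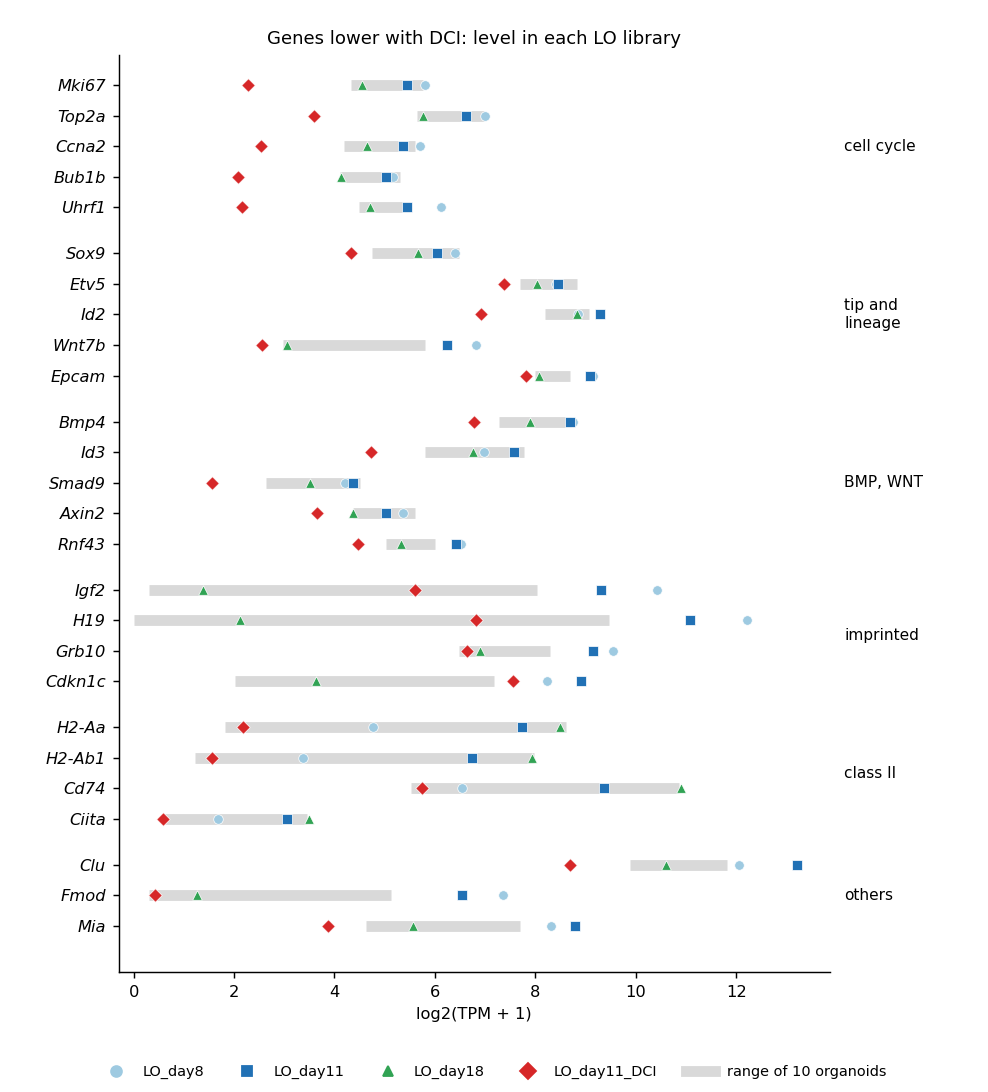
Level in log2(TPM + 1) of genes lower with DCI in each LO library (symbols, 1 library each) and their range over 10 organoid libraries of a separately normalised table (grey bars). Mki67, Sox9 and Smad9 lie below the grey bar in LO_day11_DCI, while Igf2 and H19 lie between LO_day18 and LO_day11. For Sox9 the wider set of 32 libraries, not drawn, went down to 4.24 TPM.

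Wide differences were also seen in the following genes. Tmem213 was at 0.44, 0.42 and 0.41 TPM on days 8, 11 and 18 and at 297 TPM with DCI, and Atp6v0a4, a subunit of the vacuolar proton pump, at 0.40, 0.18 and 0.37 TPM and at 121 TPM. Tmem213 (chr6:38109255-38115809, plus strand) lies inside the span of Atp6v0a4 (chr6:38048483-38124586, minus strand). The sources used here do not say that strand was used in counting, so their reads cannot be fully told apart. In the 32 other libraries Tmem213 reached at most 61.9 TPM and Atp6v0a4 18.6 TPM, both in 2C+F10. Sema6d, a semaphorin, was at 0.27 TPM without and 80.2 TPM with DCI, and Tspan11, a tetraspanin, at 0.49 and 93.2 TPM, with 25.6 TPM on day 18. Nupr1, a stress-induced chromatin protein that belongs to the transitional state and club lists counted above, was at 1.51 TPM without, 159 TPM with DCI and 49.97 TPM on day 18, and reached 317 TPM among the 32 libraries. Col6a1, a matrix collagen, was at 0.65, 1.96 and 0.90 TPM and at 167 TPM with DCI. Msln, mesothelin, from the list of mesothelial and neural markers, was at 6.19 TPM in LO_day11, 2.41 TPM in LO_day18 and 277 TPM with DCI, with the other mesothelial markers Wt1 and Upk3b listed at 0 in both libraries.

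On the lower side, Fmod, a small matrix proteoglycan, was at 164, 91.8 and 1.39 TPM on days 8, 11 and 18 and at 0.35 TPM with DCI. Cym, a gastric protease, was at 560, 95.3 and 7.24 TPM and at 0.59 TPM with DCI. Both genes were also lower on each later day without DCI. Col9a3, a collagen, was at 73.7 TPM without and 1.08 TPM with DCI, Mia, a secreted SH3 protein, at 439 and 13.7 TPM, and Habp2, a serine protease, at 41.2 and 0.45 TPM. On day 18 these 3 were at 3.00, 46.1 and 11.7 TPM. Among the 15 genes named in each direction were 9 RNA genes whose longest transcript is under 200 bases. Of these Mir686 and Mir7-1 were at 101 and 91.96 TPM with DCI and listed at 0 in the other 3 LO libraries. Mir6397 and Mirlet7e had the same value of 168 TPM in LO_day11 and were listed at 0 in the other 3. The ribosomal protein gene Rps2 was at 1159, 1758 and 780 TPM on days 8, 11 and 18 and at 46.4 TPM with DCI, but its pseudogene Rps2-ps13 was at 1164, 0 and 1047 TPM and at 1588 TPM. Summed over Rps2 and its pseudogenes, the level was 2612 TPM without and 2140 TPM with DCI, so the sum did not share the difference of Rps2.

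**Figure D5:**
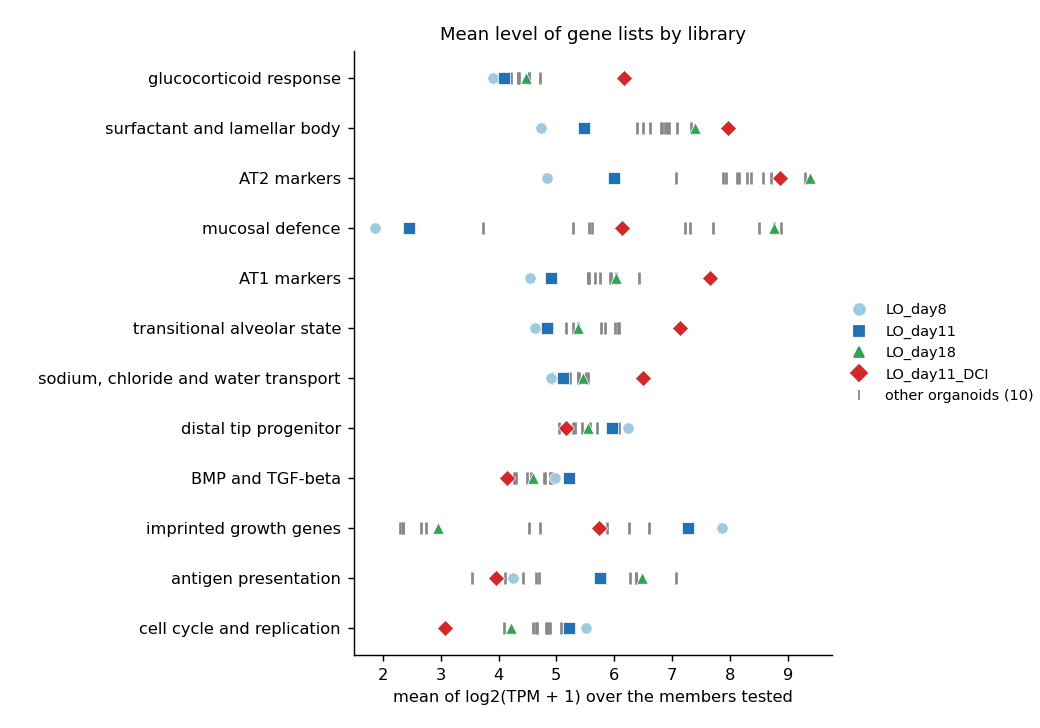
Mean of log2(TPM + 1) over the measured members of 12 gene lists in each LO library (symbols) and in each of 10 organoid libraries of a separately normalised table (grey ticks). LO_day11_DCI stands above every other library for the AT1 list, at 7.66, and below every other for the cell cycle list, at 3.07, but below LO_day18 for the AT2 list, at 8.86 against 9.39. Members were picked by their level in LO_day11 or LO_day11_DCI, a choice in which the other libraries had no part.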

How the data were processed

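Transcript levels were taken as TPM, which the authors deposited in a table for each experiment, with reads of an mRNA library of total RNA per the labels' protocols. Bowtie2, RSEM and the mm10 build are named in the submitters' processing notes, and their versions are not given in the sources used here. From the deposited TPM, log2(TPM + 1) was computed with a pseudocount of 1 TPM, and LO_day11 was subtracted from LO_day11_DCI. A gene was called at a log2 difference of 1 with 5 TPM in the higher library. Groups hold 1 library, so no test was made, and neither depth nor replicate error is known. Python 3.11.15, pandas 2.3.3, numpy 2.4.6 and matplotlib 3.10.9 were used. The calling code was checked on simulated data, a copy of LO_day11 with some genes changed and no noise added. That check covers the code and says nothing of false calls between single libraries. Positions come from GENCODE M21, which matched 55275 of 55286 gene names, and promoters from RefSeq. The comparison, its gene lists and its rules were chosen with earlier results of these data known. Named genes were the 15 largest differences in each direction, all measured members of the glucocorticoid, cyclic AMP, phosphodiesterase, surfactant and ion transport lists, and up to 6 per other list; a few of them are not reported here. Others, among them Ager, Hopx, Sfn, Axin2, Ciita and the absent markers, were chosen after their values were seen. A single deposited column, 1 in all, has no sample and was left out. Alternatives were other pseudocounts, scalings, filters, thresholds and baselines.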

Additional observations from a re-analysis of the deposited data

How the results depend on the processing

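No paired analysis was possible because each group holds 1 library, and for the same reason no library could be left out. Beside 1270 genes higher and 1478 lower, a pseudocount of 5 TPM gave 931 lower, a minimum of 1 TPM and no minimum each gave 2287 lower, and a threshold of 2 gave 519 higher and 471 lower. Against LO_day18, 788 were lower. Against the nearest of the 3 other LO libraries, with 5 TPM asked of the higher of the pair, 614 were higher and 369 lower. The share of higher genes among those called was 46.2% as reported, 51.4% after rescaling by the median ratio and 62.5% against the nearest LO library. Of the lists with at least 5 measured members, those with a median of 1 or more numbered 10, or 6 against the nearest LO library. Those with a median of -1 or less numbered 5, or 1 against the nearest LO library and 3 with no minimum. Of 251 genes named, 0 of those called changed direction under either pseudocount, the 3 scalings or the LO_day8 baseline. Genes not called were left out of that count, and some had the other direction. Kcnq1, at -0.55 against LO_day11, was at 4.45 TPM in LO_day8 and 6.67 TPM with DCI.

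The choice of baseline turned directions. Against LO_day18 the list medians were -0.63 for AT2, -2.63 for mucosal defence, -0.95 for NF-kB targets and 2.74 for imprinted genes. Among genes called against LO_day11, 27 had the other direction. Genes not called were left out of that count, among them Sftpc at -0.63 and Cited2 at -0.85 against LO_day18. For the 27, the differences were 0.11 for Akap12, 3.92 for Cdkn1c, 0.02 for Cldn6 and 1.65 for Fxyd3. They were 4.70 for H19, 4.22 for Igf2, 0.47 for Pde9a and 1.07 for Peg3. They were -0.41 for Bcl6, -3.23 for C3, -1.71 for Cftr, -4.25 for Chil1, -0.90 for Cpm, -1.02 for Cxcl15, -0.37 for Elf5, -0.77 for Lamp3, -4.23 for Lcn2, -2.46 for Lyz1 and -1.11 for Lyz2. They were -0.40 for Mvd, -0.30 for Pde7b, -2.66 for Saa3, -0.67 for Scd1, -0.06 for Sftpa1, -0.47 for Sftpd, -0.48 for Slc26a9 and -2.60 for Slpi.

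Baselines from the 10 organoid libraries were chosen after seeing the data and cross tables normalised separately. Against their median 722 genes were lower, 3 lists had a median of -1 or less, and the medians were -1.15 for mucosal defence and 2.13 for imprinted genes. Only genes called against LO_day11 that had the other direction are listed next. The differences were -0.93 for C3, -0.08 for Ccn1, 3.26 for Cdkn1c, -0.75 for Cftr and -1.35 for Chil1. They were -0.45 for Cpm, -0.03 for Elf5, 0.18 for Fxyd3 and 4.01 for H19. They were 3.82 for Igf2, -1.99 for Lcn2, -1.67 for Lyz1, -0.47 for Lyz2, -0.06 for Mt2, 0.27 for Pde9a, 0.71 for Peg3, -0.06 for Saa3 and -0.53 for Slpi. Against the nearest of the 3 LO and these 10 libraries, 343 genes were higher and 118 lower, with 4 lists at 1 or more and 1 at -1 or less. The cause of these shifts was not tested. TPM keeps no depth, so the precision of low values is unknown.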

Other observations

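Several stress and housekeeping groups held members called in both directions. Over all genes measured, 11.2% were called higher and 13.0% lower. Of 20 genes of ATF4 and amino acid stress, 16 reached 5 TPM, 6 were called higher and 1 lower, with a median of 0.70. Sesn2, a stress-induced regulator of mTORC1, was at 5.18 TPM without and 33.6 TPM with DCI, and Slc7a5, an amino acid transporter, at 10.7 and 39.5 TPM. Phgdh, which opens serine synthesis, was at 121, 114 and 53.4 TPM on days 8, 11 and 18 and at 12.0 TPM with DCI, below the 48.5 to 102 TPM of the 10 organoid libraries. Of 18 clock genes, 13 reached 5 TPM, 5 were called higher and 1 lower: Tef was at 29.5 and 123 TPM and Nfil3 at 6.81 and 32.4 TPM, while Dbp was at 5.75 and 1.69 TPM. Of the 13, 11 were higher than in LO_day11, beside 5129 of 11369 genes measured, with a median of 0.88. Their mean log2(TPM + 1) was 4.47, and the 10 organoid libraries reached 4.38. Summed over the whole list, LO_day11_DCI was at 463 TPM, below the highest of the 10 organoid libraries at 475 TPM. Of 16 chaperone genes, 14 reached 5 TPM, 3 were called higher and 1 lower. Herpud1, of endoplasmic reticulum degradation, was at 26.7 and 202 TPM and Hspb1, a small heat shock protein, at 17.7 and 62.6 TPM, whereas Hspa5, the main chaperone of that compartment, differed by -0.62. Of 23 genes of the basement membrane, 19 reached 5 TPM, 3 were called higher and 6 lower. The collagens Col4a1 and Col4a2 differed by 1.41 and 1.80, while Nid2, nidogen 2, was at 33.0, 85.0 and 89.8 TPM on days 8, 11 and 18 and at 4.57 TPM with DCI. Of 22 junction genes, 17 reached 5 TPM, 4 were called higher and 2 lower. Cldn1 was listed at 0 in LO_day11 and at 11.0 TPM with DCI, and Cldn6, a claudin of embryonic epithelia, was at 150 and 64.7 TPM, and at 63.8 TPM on day 18. Of the 17 junction genes, 15 were higher than in LO_day11, and their mean log2(TPM + 1) was 6.50, while the 10 organoid libraries reached 5.94. Summed over all 22, the level was 3491 TPM with DCI and at most 2350 TPM in those 10. The clock and junction means cover only genes at 5 TPM in LO_day11 or LO_day11_DCI.

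Beside Atp6v0a4, the 25 subunit genes of the vacuolar proton pump were looked up after its value was seen: 19 reached 5 TPM, 5 were called higher and none lower, with a median of 0.68. Over all genes measured, 11.2% were higher and 13.0% lower, with a median of -0.08. Tfcp2l1, a factor of proton-pumping cells, was at 1.01 TPM without, 55.3 TPM with DCI and 28.45 TPM on day 18, while the ionocyte genes Foxi1 and Bsnd were listed at 0 in both libraries. A few abundant genes were picked after their values were seen. Selenbp1, a selenium-binding protein, was at 26.8, 50.8 and 86.2 TPM on days 8, 11 and 18 and at 1552 TPM with DCI, and S100a6, a calcium-binding protein, at 59.8, 49.3 and 41.8 TPM and at 1075 TPM. Prdx6, a peroxiredoxin with a role in surfactant phospholipid turnover, was at 244 TPM in LO_day11 and 1489 TPM with DCI. Ass1, of arginine synthesis, was at 8.05 and 268 TPM, and Socs2, a cytokine signalling inhibitor, at 15.1 and 363 TPM. All 5 lay above the 10 organoid libraries.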
